A study of Homo sapiens with 8 samples.

Results

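The 4 control cultures of a HaCaT knockdown experiment in high glucose are described here by what they express: which genes were abundant, which were at trace level, which were not detected, and how far the cultures differed among themselves. They are the 4 libraries labelled siNC, of 8 libraries in all, and no comparison was made with the other 4. HaCaT is a human keratinocyte line that arose by spontaneous immortalization in culture, so the cultures are replicates of 1 cell line and not of different donors. The cells were grown in RPMI-1640 with fetal bovine serum at a basal glucose of 5.5 mM and used between passages 21 and 33. Every culture described spent 96 h at a glucose of 35 mM and 48 h under transfection with siNC, a negative-control small interfering RNA (siRNA). The other libraries of the study carried an siRNA against the ETS-family transcription factor ETV4. No library at the basal glucose and no untransfected library was analysed here, so the levels below hold for high glucose with a control transfection and carry no information on what glucose or transfection does. The submitters call the cultures independent biological replicates, named siNC_1 to siNC_4 below.

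Epidermal keratinocytes divide in the basal layer, where they are anchored to the basement membrane by hemidesmosomes and express the keratin pair KRT5 and KRT14. On leaving that layer they switch to KRT1 and KRT10, assemble more desmosomes and build a cornified envelope from proteins such as involucrin, loricrin and filaggrin. Keratins are intermediate filament proteins that pair a type II (basic) with a type I (acidic) member. KRT8, KRT18, KRT7 and KRT19 are the keratins of simple epithelia. HaCaT cells are known for keeping the capacity to differentiate while dividing without limit.

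Levels are given as FPKM, counts scaled by gene length and by the library total, which allows genes of different length to be compared within a library. The libraries summed to between 35057643 and 41657753 counts, spread over 34415 symbols, so 1 FPKM of a gene of 1 kb stood for 35.1 to 41.7 counts. A symbol is called detected at a mean of at least 1 FPKM over the 4 libraries. A symbol with 0 counts in all 4 could still hold up to 3 counts of the 157896540 counted, or 0.0190 CPM (counts scaled to a library of 1000000), a limit that covers counting error only. In bulk RNA, fewer cells that express a gene and less RNA per cell cannot be told apart. No test was run between genes or groups, and spread is given as SD or range over the 4 cultures.

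The library siNC_4 stood apart from the other 3. The Pearson correlation of log2 FPKM across 10089 genes was 0.991 to 0.995 among siNC_1, siNC_2 and siNC_3, and 0.970 to 0.977 between each of these and siNC_4 (genes are not independent replicates). Means without siNC_4 are given beside the named genes that it raised the most, and the spread is described in full after the gene groups. No pair of libraries agreed within sampling noise, with chi-square values of at least 10.0 per degree of freedom.

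Of the 34415 symbols, 10089 were detected. Of these, 4670 reached 10 FPKM, 679 reached 100 FPKM and 71 reached 1000 FPKM. A further 3410 symbols lay between 0.1 and 1 FPKM, 5607 had a count but a mean below 0.1 FPKM, and 15309 had 0 counts in all 4 libraries. Detection was 29.3% over all symbols and 49.7% over the 19161 symbols that RefSeq lists as protein-coding, against 402 of 12898 long non-coding RNA symbols. The counts of detected list members below are to be read beside these shares. The median level was 0.958 FPKM over protein-coding symbols and 8.70 FPKM over detected symbols. A level of 1 FPKM was reached in every library by 9562 symbols, and 1066 symbols fell on different sides of it in different libraries.

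The most abundant transcripts came from mitochondrial DNA, the ribosome, iron storage, glycolysis and the cytoskeleton. The mitochondrially encoded cytochrome oxidase subunits headed the order, COX2 at 10195, 9196, 9698 and 8239 FPKM in siNC_1 to siNC_4, COX3 at a mean of 8602 FPKM and COX1 at 7283 FPKM. FTH1, the ferritin heavy chain that stores iron, followed at 5579 FPKM. The ribosomal protein genes RPS2, RPL35 and RPL7A (5128, 4175 and 4026 FPKM), the ATP synthase subunit ATP6 (4671 FPKM), the glycolytic enzyme GAPDH (4537 FPKM) and beta-actin, ACTB (3743 FPKM), completed the first 10. These 10 genes made up 12.5% ± 0.873 of the summed FPKM (SD, n = 4) and the first 100 made up 40.4% ± 1.60. The 13 mitochondrially encoded protein genes were all detected and took 5.04%, 3.98%, 4.39% and 3.98% of the counts in siNC_1 to siNC_4. The highest share was that of siNC_1. Ribosomal protein genes (90 symbols) made up 19.2% ± 1.36 of the summed FPKM. The epithelial keratins entered the order at rank 39 with KRT7, rank 46 with KRT19 and rank 66 with KRT8.

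The label of the cells was set beside marker genes. These lists were chosen with earlier results of these data known, so they are no independent check of the label. All 10 keratinocyte markers were detected, among them SFN, the epithelial 14-3-3 protein stratifin, at 699 ± 60.4 FPKM (SD, n = 4), and TP63, the transcription factor that maintains stratified epithelia, at 11.7 ± 2.69 FPKM. No marker of melanocytes (0 of 7) or fibroblasts (0 of 7) was detected, and MLANA, TYR, COL1A2, PDGFRA and LUM had 0 counts. Leukocyte markers were at 1 of 8, the lysosomal protein CD68 at 11.7 FPKM, while PTPRC, CD3D, CD3E and MS4A1 had 0 counts. Endothelial markers were at 1 of 6, CDH5 at 3.53 FPKM, with KDR and CLDN5 at 0 counts and PECAM1 at 0.000816 FPKM. Langerhans cell markers were at 0 of 5, with CD207, CD1A and CD1C at 0 counts. Of 7 markers of Merkel cells and neurons, TUBB3, a neuronal beta-tubulin, was detected at 57.5 ± 7.48 FPKM, while ATOH1, CHGA and RBFOX3 had 0 counts. CDH5, CD68 and TUBB3 were thus the 3 markers of other cell types above 1 FPKM.

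The keratin profile combined simple-epithelial and basal keratins, with the first at the higher level. Of 54 keratin genes, 15 were detected, 12 reached 10 FPKM and 9 reached 100 FPKM. The shares to set beside the 15 of 54 are 29.3% over all symbols and 49.7% over protein-coding symbols. A further 3 lay between 0.1 and 1 FPKM, 15 had a count but lay below 0.1 FPKM, and 21 had 0 counts. Keratins together made up 1.40%, 1.35%, 1.39% and 1.25% of the summed FPKM in siNC_1 to siNC_4.

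KRT7 (chr12:52233243-52255853 in GRCh38.p14), a type II keratin of glandular and simple epithelia, stood at 1473, 1649, 1566 and 1229 FPKM in siNC_1 to siNC_4. KRT19, a type I keratin of simple epithelia, on chromosome 17 like the other type I keratins here except KRT18, stood at 1406, 1409, 1438 and 1208 FPKM. KRT7 was above KRT19 in all 4 libraries, but the ranges of the pair overlapped. KRT8 stood at 1133, 1177, 1119 and 884 FPKM, below KRT19 with ranges apart. KRT18, the partner of KRT8, stood at 601, 619, 594 and 451 FPKM. The ratio of KRT8 to KRT18 was 1.91 ± 0.0362 (SD, n = 4), nearly constant although both were lowest in siNC_4. The annotated spans of KRT8 and KRT18 overlap on chromosome 12, and 22.1% and 21.7% of their 50-base words recur in other transcripts, most often in KRT8P3 and KRT18P11, so both levels depend on how the counting treated shared reads.

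The basal pair was abundant and lower than the simple-epithelial keratins KRT7 and KRT19. KRT5 stood at 583, 502, 572 and 527 FPKM and KRT14 at 486, 454, 504 and 404 FPKM, in siNC_1 to siNC_4. KRT5 was above KRT14 in all 4 libraries with overlapping ranges, and it did not separate from KRT18 either. KRT7 exceeded KRT5 2.72 ± 0.413-fold in FPKM (SD, n = 4), in 4 of 4 libraries. KRT15, a basal keratin also known from the hair follicle bulge, stood at 210, 159, 215 and 209 FPKM, and KRT13, the type I keratin of internal stratified epithelia, at 174, 118, 165 and 155 FPKM. Both were lowest in siNC_2, and their ranges overlapped. KRT4, the usual partner of KRT13, was at 2.18 ± 0.350 FPKM.

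Among keratins of wounds and fast-growing epidermis, KRT17 was at 136 ± 14.0 FPKM and KRT6A at 67.4 ± 3.79 FPKM, with ranges apart. KRT16, the usual partner of KRT6A, was much lower at 3.64 ± 0.649 FPKM. KRT6B was at 0.219, 0.0496, 0.0213 and 0.0754 FPKM and KRT6C at a mean of 0.0235 FPKM. Of the 50-base words of KRT6B and KRT6C, 47.1% and 53.6% recur in other transcripts, against 39.1% for KRT6A, so the split among these 3 genes is uncertain. KRT14, KRT16 and KRT17 share 23.8%, 22.0% and 11.7% of their words with other transcripts.

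The suprabasal keratins were uneven, with 3 of 8 detected and 2 at 10 FPKM or more. KRT80 was at 59.8 ± 4.25 FPKM and KRT10, the type I keratin of the spinous layer, at 28.2, 31.2, 30.3 and 28.4 FPKM. The remaining detected member, KRT9, was at 1.92 FPKM. KRT1, the partner of KRT10, had 4 counts in all, in siNC_3 alone. KRT2, the keratin of the upper epidermis, and KRT77, KRT78 and KRT79 had 0 counts. KRT10 was thus detected while KRT1 was at trace level and KRT2 at 0 counts. Of the 25 keratins of hair and inner root sheath none was detected, the highest being KRT81 at 0.888 ± 0.0369 FPKM, whose annotated span overlaps that of KRT86.

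**Figure D1:**
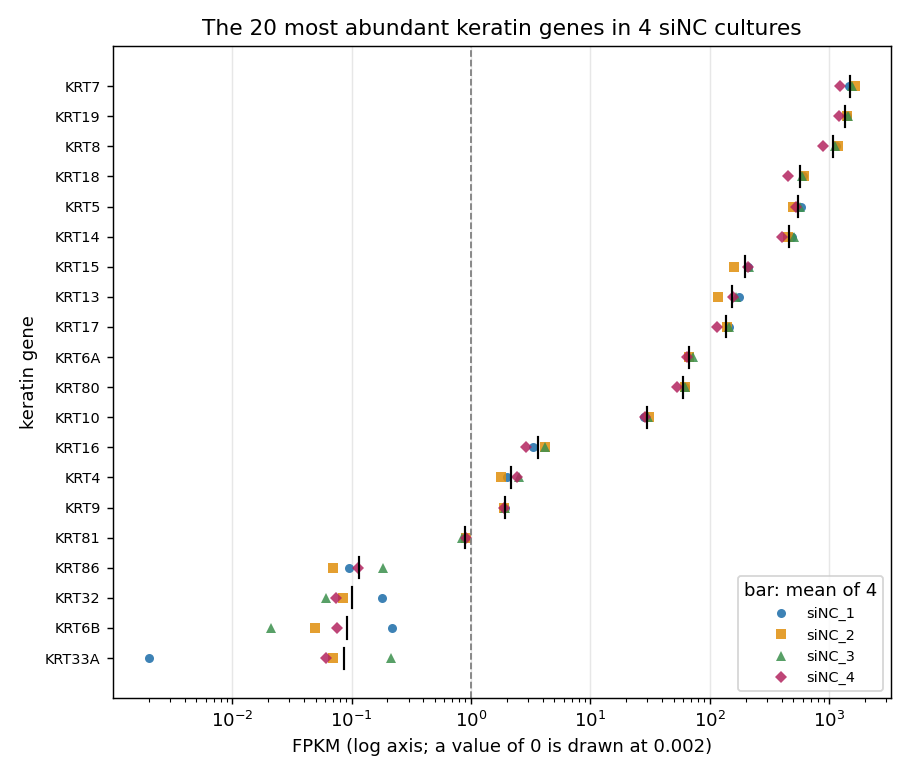
FPKM of the 20 most abundant keratin genes (log axis) in the 4 siNC libraries, with a marker for each library and a bar at the mean of 4. KRT7, KRT19 and KRT8 lie near or above 1000 FPKM, KRT5 and KRT14 between 404 and 583 FPKM, and only KRT81 of the hair keratins comes near 1 FPKM.

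The core promoters of 4 keratins are printed because they stand for the levels just described: the basal KRT5, the suprabasal KRT10, and KRT2 and KRT76, with 0 counts. They are the 60 bases before the transcript start, 5′ to 3′ on the gene's strand, from RefSeq on GRCh38.p14. Capitals mark the letters TATAAA, the core of the TATA box, a promoter element bound by the TATA-binding protein.
KRT5, chr12:52520395-52520454, minus strand: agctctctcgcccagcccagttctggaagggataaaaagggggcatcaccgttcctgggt
KRT10, chr17:40822615-40822674, minus strand: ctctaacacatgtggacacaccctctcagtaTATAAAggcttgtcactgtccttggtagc
KRT2, chr12:52652212-52652271, minus strand: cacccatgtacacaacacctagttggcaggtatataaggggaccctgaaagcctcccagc
KRT76, chr12:52777346-52777405, minus strand: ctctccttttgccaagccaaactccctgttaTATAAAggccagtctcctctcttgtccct

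In KRT10 and in KRT76 the letters TATAAA began 29 bases before the start (position -29). KRT10 was detected at 29.5 FPKM and KRT76 had 0 counts, so the letters stood before a transcribed and before an undetected gene. KRT5 and KRT2 hold other A- and T-rich letters in the window and not this exact word. Both strands were searched, and the word was found in 978 of 23746 promoters of the same length (4.12%). The share was 5.10% among genes of at least 100 FPKM, 2.06% from 10 to 100 FPKM, 1.67% from 1 to 10 FPKM, 4.13% below 1 FPKM with a count and 5.90% among genes with 0 counts. Of the 54 keratins, 34 had an entry, and only 5 of the 15 detected keratins were among them. KRT7, KRT19, KRT18 and KRT14 had no entry. The word was found in 1 of the 5 detected keratins with an entry and in 15 of the 29 below 1 FPKM. Most detected keratins were thus not searched, and these shares do not compare detected keratins with the rest. A match is a description of the letters and not a measured site.

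Of 14 other intermediate filament genes 4 were detected, 3 of them nuclear lamins. This share (28.6%) was near the 29.3% over all symbols and below the 49.7% over protein-coding symbols. Vimentin, VIM, the filament of mesenchymal cells, was at 0.178, 0.0397, 0 and 0.299 FPKM, and desmin, DES, and GFAP had 0 counts. The nuclear lamins were abundant, LMNA at 294 ± 27.6 FPKM, LMNB2 at 166 ± 8.63 FPKM and LMNB1 at 57.7 ± 8.49 FPKM. NEFL, a neurofilament, was detected at 6.57 ± 0.658 FPKM while NEFM and NEFH had 0 counts. Of 9 transcription factors and markers of epithelial-mesenchymal transition, 3 were detected (33.3%), near the share over all symbols and below that over protein-coding symbols. They were S100A4 at 18.5 ± 1.67 FPKM, SNAI2 at 12.5 ± 1.86 FPKM and TWIST2 at 7.46 ± 0.632 FPKM. ZEB1, a repressor of E-cadherin, was at 0.00527 FPKM.

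Adherens junctions, which join the actin belts of neighbouring cells, were represented by 15 of 17 genes. Plakoglobin, JUP, shared by adherens junctions and desmosomes, led with 312, 260, 266 and 246 FPKM in siNC_1 to siNC_4. P-cadherin, CDH3, the cadherin of basal keratinocytes, was at 133, 117, 126 and 121 FPKM, and E-cadherin, CDH1, at 105, 85.6, 91.9 and 104 FPKM. CDH1 was below CDH3 in 4 of 4 libraries, and their ranges did not overlap. N-cadherin, CDH2, which is better known from neural and mesenchymal cells, was also present at 35.3 ± 5.07 FPKM. CDH1 exceeded it 2.75 ± 0.268-fold in FPKM, in 4 of 4 libraries. The catenin CTNNB1 was at 48.7 ± 7.12 FPKM and CTNNA1 at 68.6 ± 5.39 FPKM, whereas p120-catenin, CTNND1, was at 1.12 ± 0.118 FPKM. The span of CTNND1 overlaps that of the readthrough symbol TMX2-CTNND1, at 0.0682 FPKM, and no source used here states how reads in both were counted.

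Desmosomes, which couple keratin filaments between cells, were represented by 12 of 15 genes, without the cadherins DSG1 and DSC1. Plakophilin 3, PKP3, was at 177, 155, 168 and 135 FPKM and PKP1 at 65.0 ± 5.52 FPKM. Desmoglein 2, DSG2, the desmoglein of simple epithelia, stood at 34.0, 29.2, 28.4 and 61.5 FPKM, and the basal desmoglein DSG3 at 10.9, 8.01, 10.2 and 22.5 FPKM. Both desmogleins were highest in siNC_4, and without it the means were 30.5 and 9.70 FPKM instead of 38.3 and 12.9 FPKM. DSG2 exceeded DSG3 in 4 of 4 libraries, by 3.07 ± 0.420-fold in FPKM. Desmoplakin, DSP, which ties the plaque to keratin, was at 21.7 ± 7.93 FPKM, and at 18.0 FPKM without siNC_4. DSG1 and DSC1, the desmosomal cadherins of the upper epidermis, had 0 counts.

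Claudin 7 dominated the tight junction genes, which seal the space between epithelial cells. CLDN7 was at 361, 444, 428 and 367 FPKM, CLDN4 at 89.1 ± 7.32 FPKM and CLDN1, required for the epidermal barrier, at 85.6 ± 14.3 FPKM. Of 28 genes, 14 were detected (50%), near the 49.7% over protein-coding symbols. CLDN2, CLDN5, CLDN10, CLDN14, CLDN17, CLDN18 and CLDN19 had 0 counts. Occludin, OCLN, was at 2.26 FPKM and the scaffold TJP1 at 10.1 ± 2.99 FPKM, or 1.93 and 8.68 FPKM without siNC_4. Of 22 gap junction genes 7 were detected (31.8%, against 49.7% over protein-coding symbols), among them the epidermal connexin GJB5 at 28.2 ± 2.27 FPKM. GJA1, the most widespread connexin, was at 3.74, 3.87, 3.53 and 7.44 FPKM, with the high value in siNC_4, and its mean was 4.65 FPKM with and 3.71 FPKM without that library. GJB2, the connexin of wounded and inner-ear epithelium, was at 0.804 FPKM and GJB6 had 0 counts.

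Anchorage to the basement membrane was represented in full. All 9 genes of hemidesmosomes and laminin-332 were detected. CD151, the tetraspanin of hemidesmosomes, was at 211, 232, 238 and 180 FPKM and collagen XVII, COL17A1, at 157, 129, 141 and 140 FPKM. The laminin-332 chain LAMB3 was at 98.1 ± 8.42 FPKM, while LAMA3 was lower at 17.9 ± 3.55 FPKM. Integrin beta-4, ITGB4, was at 80.6 ± 9.89 FPKM, and its partner ITGA6 was at 42.0, 36.3, 36.9 and 74.1 FPKM. The high ITGA6 value was again that of siNC_4, and the mean without it was 38.4 FPKM instead of 47.3 FPKM.

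Of 26 integrin genes 12 were detected (46.2%), near the 49.7% over protein-coding symbols. ITGA3, the laminin-332 receptor subunit, led with 117, 105, 116 and 100 FPKM. ITGB1, the common beta subunit, was at 62.8, 48.1, 47.8 and 111 FPKM, and ITGAV, a subunit of vitronectin and fibronectin receptors, at 11.3, 11.4, 11.02 and 27.6 FPKM. In both genes siNC_4 lay far above the others, with means of 52.9 and 11.3 FPKM without it against 67.5 and 15.3 FPKM with it. The detected integrins as a group lay a median of 0.69 log2 units above their 4-library mean in siNC_4. The integrins of leukocytes and platelets were at trace level or at 0 counts, with ITGAL at 0.00227 FPKM, ITGA2B at 0.0181 FPKM, and ITGAD and ITGB3 at 0 counts.

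**Figure D2:**
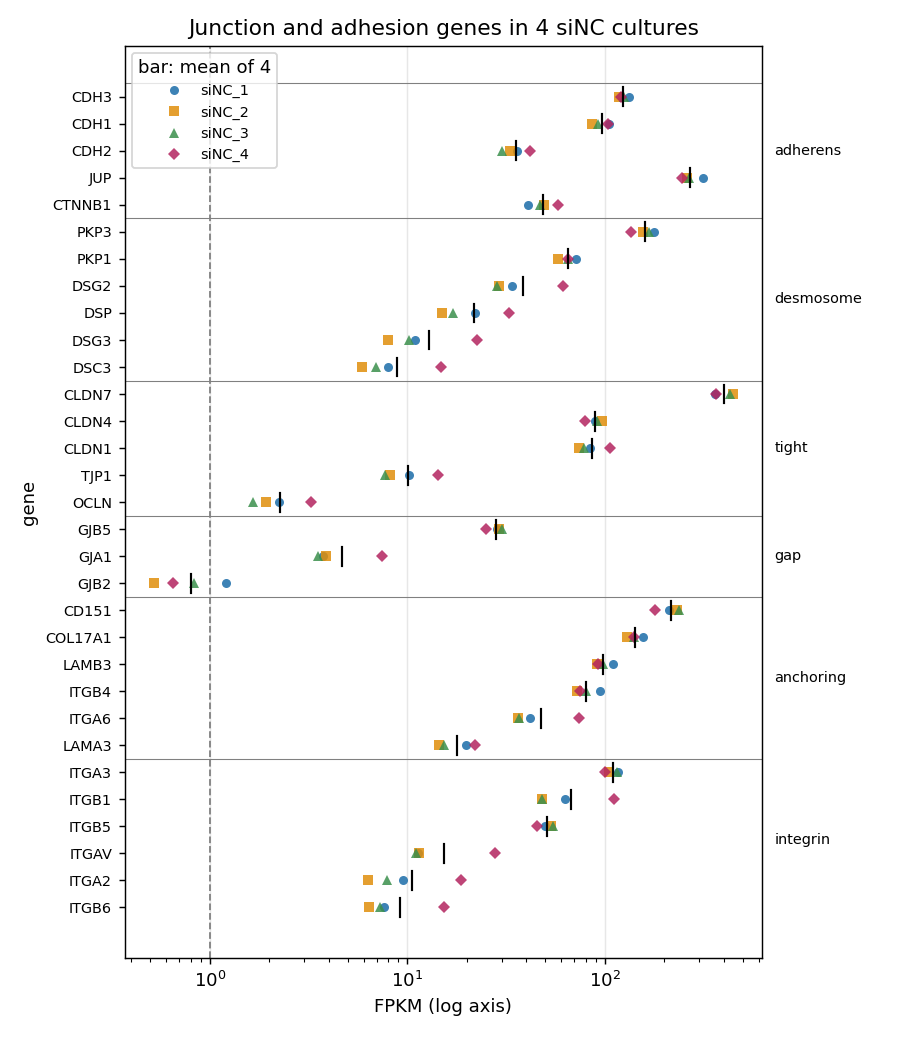
FPKM of junction, anchoring and integrin genes (log axis) in the 4 siNC libraries, with a marker for each library and a bar at the mean of 4. The siNC_4 marker stands to the right of the others in DSG2, DSG3, ITGA6, ITGB1 and ITGAV, and within or below the others in JUP, PKP3, CD151 and ITGA3.

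A part of the basement membrane and adhesive glycoprotein genes was detected, and no fibrillar collagen reached 1 FPKM. Of 23 basement membrane genes 12 were detected (52.2%), near the 49.7% over protein-coding symbols. Agrin, AGRN, led them at 64.7 ± 11.6 FPKM. The collagen IV chains were unequal, COL4A2 at 61.6, 51.1, 54.9 and 53.1 FPKM and COL4A1 at 10.6, 10.1, 10.3 and 10.3 FPKM, a ratio of 5.33 ± 0.334 (SD, n = 4). Of 16 interstitial collagens 3 were detected (18.8%, against 49.7% over protein-coding symbols), with COL16A1 highest at 8.45 ± 0.435 FPKM. COL1A1 was at 0.704 ± 0.215 FPKM, and its partner chain COL1A2 had 0 counts. Among the glycoproteins, TGFBI, an adhesion protein induced by TGF-beta, stood at 668, 638, 650 and 601 FPKM and thrombospondin 1, THBS1, at 168, 137, 139 and 168 FPKM. Fibronectin, FN1, was at 27.6 ± 5.61 FPKM, and SPARC, a matrix protein of mesenchymal cells, was at 0.0249 FPKM.

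Of 29 matrix proteases and inhibitors 18 were detected. MMP14, the membrane-bound protease that activates MMP2, was the most abundant and the most even, at 162, 158, 159 and 153 FPKM. MMP28 was at 57.4 ± 5.80 FPKM, the plasminogen activator PLAU at 44.9 ± 2.63 FPKM, MMP2 at 27.1 ± 1.79 FPKM and MMP7 at 24.9 ± 4.76 FPKM. MMP14 exceeded TIMP2, the inhibitor that takes part in MMP2 activation, 6.84 ± 0.315-fold in FPKM, in 4 of 4 libraries. The secreted collagenase MMP1 was at 0.192 FPKM, MMP9 at 0.0939 FPKM, and MMP3 had 0 counts.

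Genes of terminal differentiation were mostly not detected. Of 37 genes of the cornified envelope 4 were detected and 15 had 0 counts, against 29.3% detected over all symbols and 49.7% over protein-coding symbols. The detected ones were cystatin A, CSTA, at 87.7, 102, 89.7 and 82.2 FPKM, dermokine, DMKN, at 33.7 ± 5.27 FPKM, involucrin, IVL, at 18.6, 13.5, 15.4 and 15.3 FPKM, and SPRR2A at 1.01 ± 0.290 FPKM. SPRR2A was below 1 FPKM in siNC_3 and siNC_4, and without siNC_1 or siNC_2 its mean was 0.928 or 0.935 FPKM. The list had 4 members detected without siNC_1, 3 without siNC_2, and 5 without siNC_3 or siNC_4. Filaggrin, FLG, was at 0.231 FPKM and the crosslinking enzyme TGM1 at 0.547 ± 0.176 FPKM. Loricrin, LORICRIN, and FLG2, TGM3, CALML5 and SBSN had 0 counts. Involucrin, an early marker, was thus present while loricrin, a late one, was not detected.

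Of 31 transcription factors of keratinocytes 21 were detected. ELF3, an epithelial ETS factor, was at 103, 94.7, 105 and 98.6 FPKM, and the cell-cycle factor FOXM1 at 96.0, 81.8, 87.3 and 80.3 FPKM. KLF5 was at 27.8 ± 7.04 FPKM and EHF at 20.5, 17.5, 18.9 and 39.6 FPKM, with siNC_4 above the others in both. Without siNC_4 the means were 24.3 FPKM for KLF5 and 18.9 FPKM for EHF, which was at 24.1 FPKM with it. KLF4, which acts in barrier formation, was at 5.43 FPKM and GRHL3 at 3.39 FPKM, while ZNF750, an inducer of late differentiation, had 0 counts. ETV4, the gene that the study targets elsewhere, was at 11.6, 10.5, 11.1 and 7.49 FPKM in these controls, lowest in siNC_4, with a mean of 10.2 ± 1.86 FPKM and of 11.1 FPKM without that library.

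Of 12 glucose transporter genes 3 were detected (25.0%), near the 29.3% over all symbols and below the 49.7% over protein-coding symbols. SLC2A1 (GLUT1), the basal glucose transporter of keratinocytes, was at 62.0, 59.5, 58.3 and 52.1 FPKM. SLC2A6 and SLC2A8, transporters of internal membranes, were at 12.1 ± 1.25 and 9.86 ± 1.75 FPKM. The insulin-responsive transporter SLC2A4 was at 0.412 ± 0.0862 FPKM, SLC2A3 was at 0.0174 FPKM, and the liver and islet transporter SLC2A2 had 0 counts.

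Every step of glycolysis had at least 1 detected gene, and the lower steps were the more abundant. Of 33 genes of glycolysis and lactate handling 22 were detected. In the upper steps, hexokinase HK1 was at 23.8 ± 0.682 FPKM and exceeded HK2, at 6.89 ± 0.516 FPKM, 3.46 ± 0.288-fold. The phosphofructokinase PFKP was at 96.7 ± 7.63 FPKM. In the lower steps, TPI1 was at 832, 939, 916 and 707 FPKM, GAPDH at 4260, 4968, 4982 and 3940 FPKM, and PKM, pyruvate kinase, at 1340, 1407, 1444 and 1156 FPKM. All 3 were lowest in siNC_4. Lactate dehydrogenase A, LDHA, at 1007, 1259, 1218 and 1212 FPKM, exceeded LDHB, at 80.7 ± 19.3 FPKM, 15.1 ± 3.31-fold in FPKM. LDHB was highest in siNC_4, at 109 FPKM, and its mean without that library was 71.2 FPKM. The counted levels of the aldolases were low beside their neighbours in the pathway. ALDOC was at 20.6 ± 2.69 FPKM and ALDOA at 15.4, 15.9, 15.6 and 11.6 FPKM. The annotated span of ALDOA, the main aldolase of most cells, overlaps that of the symbol LOC112694756, at 1.73 FPKM. No source used here states how reads in both were counted, so the level of ALDOA is uncertain. HK3, PKLR, PGK2, PGAM2 and LDHC had 0 counts.

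The branches that leave glycolysis were broadly present, with 17 of 19 genes of the polyol, hexosamine and pentose phosphate pathways detected. The pentose phosphate enzymes, which make NADPH and ribose, were among the highest. TALDO1 stood at 368, 433, 403 and 323 FPKM and TKT at 340, 334, 336 and 273 FPKM. The polyol pathway, which turns glucose into sorbitol and fructose, was represented by aldose reductase, AKR1B1, at 92.4, 107, 109 and 85.4 FPKM and by SORD at 37.5 ± 3.22 FPKM. AKR1B1 exceeded SORD 2.62 ± 0.126-fold in FPKM, in 4 of 4 libraries. GFPT1, the entry enzyme of the hexosamine pathway, was at 3.84 FPKM (3.38 FPKM without siNC_4) and GFPT2 at 0.0215 FPKM. Of 16 genes of gluconeogenesis and glycogen 11 were detected, with the glycogen phosphorylase PYGL at 118 ± 3.74 FPKM, and G6PC1, PCK1 and GYS2, enzymes of the liver, at 0 counts.

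**Figure D3:**
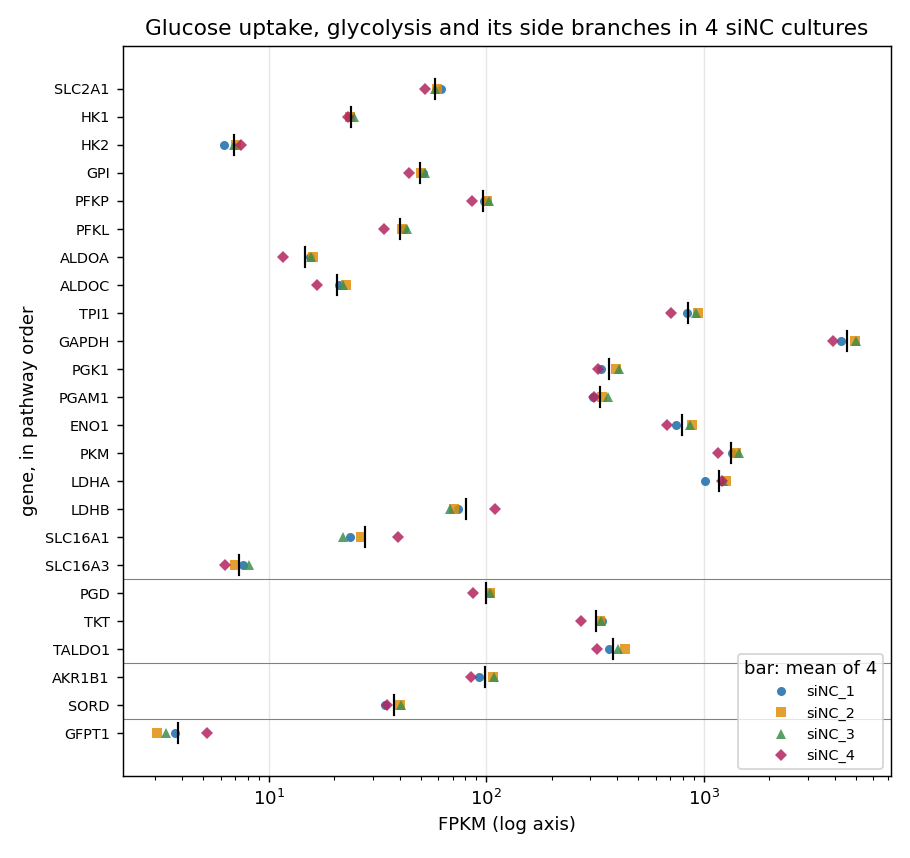
FPKM (log axis) of glucose transport, glycolysis, lactate, pentose phosphate, polyol and hexosamine genes in pathway order, with a marker for each siNC library and a bar at the mean of 4. GAPDH stands highest at a mean of 4537 FPKM, ALDOA and ALDOC lie at 14.6 and 20.6 FPKM, and the markers of 1 gene mostly lie close together. The level of ALDOA is uncertain because its annotated span overlaps that of another symbol.

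Genes that sense glucose or insulin were at moderate or low levels, with 12 of 17 detected. TXNIP, a glucose-responsive inhibitor of thioredoxin, was at 12.1, 12.9, 11.4 and 14.9 FPKM. Its activators MLX and MLXIP were at 25.2 ± 1.77 and 9.08 ± 1.27 FPKM, whereas the related factor MLXIPL was at 0.006 FPKM. The insulin receptor, INSR, was at 0.316 FPKM and IGF1R at 6.62 FPKM. AGER, the receptor for advanced glycation end products, was at 0.608 FPKM, and GLO1, which clears methylglyoxal, was at 53.3, 60.8, 56.1 and 92.2 FPKM, with the high value in siNC_4 and a mean of 56.7 FPKM without it against 65.6 FPKM with it.

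Downstream of pyruvate, 20 of 23 genes of pyruvate entry and the citric acid cycle were detected, led by MDH2 at 170 ± 15.9 FPKM and SDHB at 160 ± 11.2 FPKM. PDK4, a starvation-induced brake on pyruvate oxidation, had 0 counts. Of 26 genes of cholesterol and fatty acid synthesis 24 were detected. SCD, the desaturase that makes monounsaturated fatty acids, was at 344 ± 16.6 FPKM, and FDPS, of the sterol pathway, at 153 ± 25.3 FPKM. Of 29 antioxidant and redox genes 22 were detected, with thioredoxin, TXN, at 1531, 2022, 1764 and 1523 FPKM, peroxiredoxin 1, PRDX1, at 746 ± 104 FPKM and NQO1, a target of NRF2, at 231 ± 25.3 FPKM. The superoxide-producing oxidases NOX4 and CYBB, and the extracellular dismutase SOD3, had 0 counts.

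Class I genes of antigen display were abundant, and most class II genes were not detected. Of 26 genes of antigen presentation 14 were detected (53.8%), near the 49.7% over protein-coding symbols. B2M, the common light chain of class I, was at 272, 311, 273 and 349 FPKM, HLA-B at 246 ± 16.1 FPKM and HLA-C at 199 ± 14.9 FPKM. HLA genes are highly polymorphic and alike, so their levels depend on how reads were placed. Of class II, HLA-DRA was at 0.250 FPKM, CD74 at 0.540 FPKM and their activator CIITA at 0.197 FPKM. The detected class II genes were HLA-DMA, at 3.02 FPKM, and HLA-DQB1, at 18.5, 17.2, 18.7 and 16.0 FPKM, while its partner HLA-DQA1 was at 0.0465 FPKM. HLA-DPB1, HLA-G and CD80 had 0 counts.

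Of 25 genes of the interferon system 15 were detected. They were the receptors and signal carriers, with IRF1 at 58.8, 57.2, 58.0 and 55.7 FPKM, IFNGR1 at 16.7 FPKM and IFNAR1 at 4.59 FPKM. Without siNC_4 the means of these receptors were 14.0 and 3.98 FPKM. The ligands IFNA1, IFNA2, IFNB1, IFNK, IFNG, IFNL1, IFNL2 and IFNL3 had 0 counts. Of 24 genes of pattern recognition 12 were detected (50%), near the 49.7% over protein-coding symbols. Among them were the inflammasome adaptor PYCARD at 50.2 ± 5.58 FPKM and the RNA sensor adaptor MAVS at 21.4 ± 1.40 FPKM. TLR3, a sensor of double-stranded RNA, was at 2.64 FPKM with siNC_4 and 1.97 FPKM without it, and TLR7, TLR8, TLR9 and TLR10 had 0 counts.

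Cytokine genes were led by the interleukin-1 family. Of 34 genes 12 were detected (35.3%, against 49.7% over protein-coding symbols) and 11 had 0 counts. IL18 was at 49.4, 53.7, 45.5 and 58.2 FPKM and IL1B at 34.2 ± 3.06 FPKM, with ranges apart. The receptor antagonist IL1RN was at 7.97 ± 0.779 FPKM, and IL1B exceeded it 4.35 ± 0.825-fold. IL6 and TNF were below detection at 0.243 and 0.371 FPKM, and IL33, IL10 and IL17A had 0 counts. Among 20 chemokines 8 were detected (40%, against 49.7% over protein-coding symbols). The monocyte attractant CCL2 was at 104, 105, 103 and 126 FPKM, CXCL16 at 59.3 ± 5.05 FPKM and CXCL1 at 32.1 ± 2.25 FPKM. CXCL9, CXCL12 and CXCL14 had 0 counts.

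Of 15 antimicrobial genes 8 were detected (53.3%), near the 49.7% over protein-coding symbols. Lipocalin 2, LCN2, which binds bacterial siderophores, was at 566, 513, 559 and 485 FPKM, far above the next gene, S100A9, at 23.5 ± 3.87 FPKM. S100A8, the partner of S100A9, was at 2.68, 0.393, 2.83 and 2.67 FPKM, with siNC_2 on the other side of 1 FPKM. Of 22 complement genes 10 were detected (45.5%), near the share over protein-coding symbols, with C3 at 51.0 ± 7.84 FPKM. The protective membrane proteins CD59 and CD46 were at 35.9 ± 2.91 FPKM and at 26.9, 27.2, 23.4 and 48.4 FPKM. The mean of CD46 was 31.4 FPKM, and 25.8 FPKM without siNC_4. C1QA, C1QB, C1QC, C6, C8A and C9 had 0 counts.

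All 25 proliferation genes were detected. PCNA, the sliding clamp of DNA replication, was at 295, 283, 258 and 307 FPKM, the helicase subunit MCM7 at 206 ± 21.2 FPKM, CCNB1 at 188 ± 12.1 FPKM and CCND1 at 184, 175, 174 and 184 FPKM. The cell-cycle inhibitor CDKN1A was at 29.8 ± 2.70 FPKM. CDKN2A, a cell-cycle inhibitor of ageing cells, was at 12.9 ± 1.58 FPKM and the telomerase gene TERT at 0.0743 FPKM. Of 19 genes of growth factor receptors and ligands 13 were detected, with EGFR at 27.0, 19.7, 21.5 and 32.5 FPKM and its ligands TGFA at 15.4 ± 2.17 FPKM and AREG at 9.11 ± 1.37 FPKM, while EGF was at 0.000902 FPKM.

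**Figure D4:**
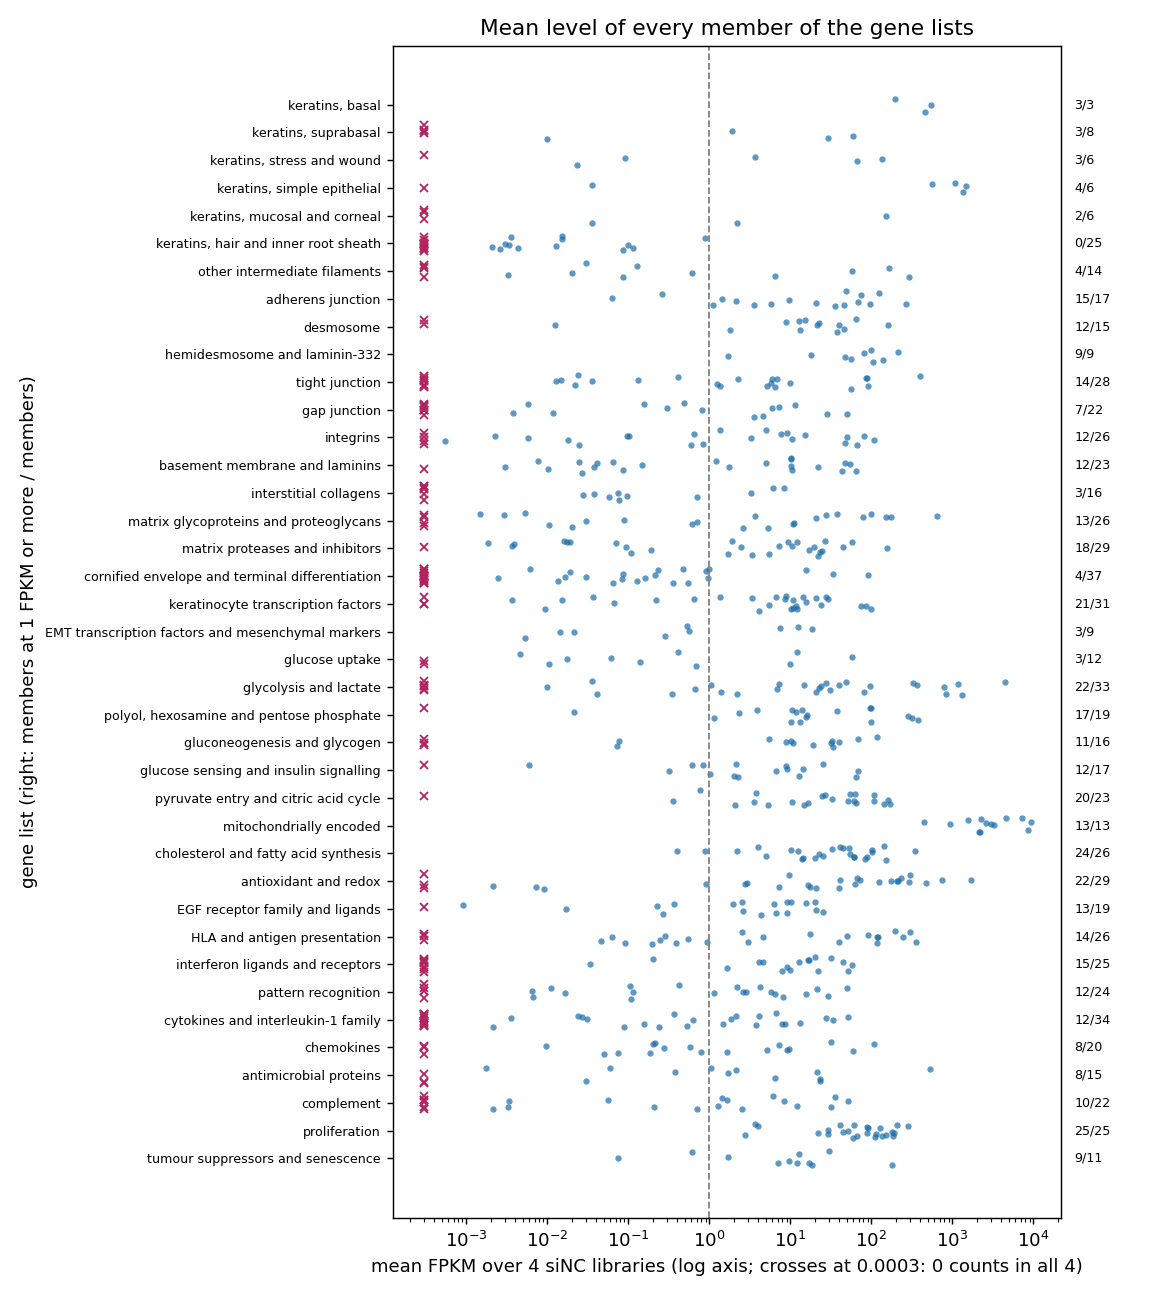
Mean FPKM over the 4 siNC libraries (log axis) of every member of the 39 functional gene lists, a point for each gene, with crosses for genes at 0 counts and the number detected of all members at the right. Proliferation, hemidesmosome and mitochondrially encoded genes lie wholly to the right of 1 FPKM, and the cornified envelope list has 4 of 37 there.

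The spread between cultures was measured over the 4670 genes of at least 10 FPKM. The median coefficient of variation (CV, the SD as a percent of the mean) was 10.6%, with quartiles of 7.52% and 14.5%, against a median of 1.70% from counting error alone. The CV was above 20% in 588 genes, above 50% in 15 and below 5% in 412. Without siNC_4 the median CV was 6.61%, and without any other library it was 10.7% to 11.6%. The biological coefficient of variation that edgeR estimated over 12600 genes was 20.8% and, without siNC_4, 11.5%. In 518 of the 4670 genes (11.1%) 1 library stood apart by Dixon's criterion for 4 values, and in 455 of these it was siNC_4, above the others in 300 and below in 155.

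The 10 genes of largest CV were all highest in siNC_4. TOP2A, a topoisomerase of dividing cells, was at 48.9, 46.3, 46.7 and 123 FPKM, with a mean of 66.2 FPKM and of 47.3 FPKM without siNC_4. The condensin subunit SMC4 was at 35.2, 28.7, 30.1 and 74.7 FPKM, and SMC2, its partner, at 15.3, 13.7, 14.2 and 34.6 FPKM. Without siNC_4 their means were 31.3 and 14.4 FPKM instead of 42.2 and 19.5 FPKM. FAR1, KITLG, ADAM9, KIF5B and FAM91A1 were also highest in siNC_4, with means of 9.15, 10.7, 14.4, 11.01 and 7.97 FPKM without it against 12.7, 14.4, 19.5, 14.9 and 10.7 FPKM with it. The genes of smallest CV included the proteasome subunit gene PSMD11, at 75.8, 76.8, 76.9 and 76.3 FPKM, ACSL5, an acyl-CoA synthetase, at 11.7, 11.5, 11.5 and 11.6 FPKM, and UHRF1, which maintains DNA methylation, at 24.4, 24.5, 24.9 and 24.3 FPKM. In the opposite direction from TOP2A, metallothionein MT2A was at 791, 811, 634 and 465 FPKM and ZNF593 at 78.1, 89.7, 84.4 and 50.7 FPKM, lowest in siNC_4.

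The level in siNC_4 was at least 1 log2 unit above the mean log2 level of the other 3 in 100 of the 4670 genes and at least 1 below it in 0. The median difference was -0.12 log2 units, with 1590 genes above and 3080 below. The deviations moved with the GC content of the transcript. Across 4561 genes with a GC value, Spearman's rho between GC content and the deviation of a library from the 4-library mean was 0.56 in siNC_1, 0.28 in siNC_2, 0.55 in siNC_3 and -0.74 in siNC_4. These 4 values share the same mean, so their signs are not independent, and they are a description across genes. In siNC_4 the median deviation was 0.36 log2 units in the fifth of genes lowest in GC and -0.21 in the fifth highest in GC. The 10 genes farthest above in siNC_4 had a median GC content of 38.0% and the 9 with a value among the 10 farthest below had 59.4%, against 51.9% over all genes. Gene length was not examined beside GC content, and the summed FPKM, which depends on gene length, was lowest in siNC_4 (428206). The part of GC content in the differences of DSG2, ITGB1, ITGAV or TOP2A between cultures was not tested.

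**Figure D5:**
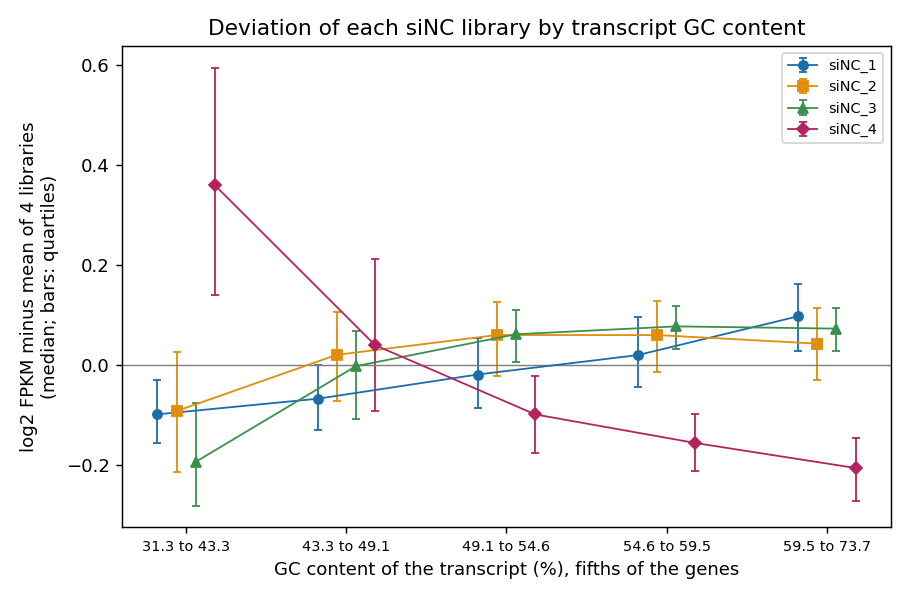
Median deviation of each siNC library from the mean log2 FPKM of 4 libraries, in log2 units with quartiles as bars, for 5 equal bins of 4561 genes ordered by transcript GC content in percent. The siNC_4 line runs from 0.36 at low GC to -0.21 at high GC, and the other 3 libraries run the opposite way over a smaller range. Because deviations are taken from the mean of the 4 libraries, the opposite run is in part fixed by the measure.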

How the data were processed

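Total RNA of the 4 siNC cultures was sequenced, and 2 tables were used. The authors deposited raw counts per gene symbol and FPKM values for the same symbols. The submitters' processing notes name hg38 as the build, and R 3.2.0. The aligner, counter, annotation, strand setting and treatment of shared reads were not given in the sources used here. The deposited FPKM values equal the count divided by the library total and a fixed gene length (16936 of 16937 symbols within a relative tolerance of 1e-06), so they hold no normalization between libraries. The 4 siETV4 columns were not used.

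Groups came from the sample labels. Detection was set at a mean of 1 FPKM, with 10, 100 and 1000 FPKM as further levels. The members and the 46 gene lists (39 functional, 7 of cell type markers) were chosen with earlier results of these data known. Any list member may be named (some results are not reported here), with values per library for the 6 highest, defining members and members at 0 counts. Outside the lists, the 30 most abundant genes and the 10 genes at each end of CV and of siNC_4 deviation may be named. DSG3, COL4A1, ALDOA, HLA-DQB1 and ETV4 were given values per library outside this rule, after their values were seen.

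The dispersion was estimated with edgeR 4.0.16 in R 4.3.3 from the counts with TMM factors. The correlation used log2 of FPKM plus 0.01. Other steps used Python 3.11.15, pandas 2.3.3 and numpy 2.4.6. The spread measures were tested on simulated data. In each simulation every gene had the same CV and no library deviated along GC content, so a library such as siNC_4 was not covered. GC content and the 50-base words came from GENCODE v29 transcripts, and positions, biotypes and promoters from RefSeq on GRCh38.p14, where 32094 symbols matched. Alternatives were TPM rescaling, TMM scaling, other thresholds, raw counts for shares, RLE factors, no filter and each library left out.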

Additional observations from a re-analysis of the deposited data

Results flagged for a closer look

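In 31 of the 182 genes named above with a value in every library, 1 library stood apart: its gap to the nearest other value, divided by the range of the 4, was above Dixon's critical value for 4 samples. Chance flags about 1 gene in 20, and 518 of all 4670 genes of at least 10 FPKM (11.1%) passed the same criterion. The named genes include some chosen because siNC_4 or the CV was extreme in them, so their count is no measure of how often libraries stand apart. The library siNC_4 stood above the others in 18 of the 31 and below them in 7.

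Above the others in siNC_4 were the adhesion genes DSG2 (61.5 FPKM, others 28.4 to 34.0), GJA1 (7.44 FPKM), ITGA6 (74.1 FPKM) and ITGAV (27.6 FPKM). The transcription factors KLF5 (38.2 FPKM) and EHF (39.6 FPKM) and the enzyme LDHB (109 FPKM) did the same. So did the immune genes IFNGR1 (25.0 FPKM), CCL2 (126 FPKM) and CD46 (48.4 FPKM). Genes of chromosomes and transport followed, TOP2A (123 FPKM), SMC4 (74.7 FPKM), SMC2 (34.6 FPKM), FAR1 (23.4 FPKM), KITLG (25.7 FPKM), ADAM9 (34.9 FPKM), KIF5B (26.4 FPKM) and FAM91A1 (19.1 FPKM).

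Below the others in siNC_4 were the keratins KRT18 (451 FPKM, others 594 to 619), KRT19 (1208 FPKM) and KRT80 (53.5 FPKM) and the ribosomal protein genes RPS2 (4088 FPKM) and RPL35 (3269 FPKM). The sugar enzymes ALDOA (11.6 FPKM) and TKT (273 FPKM) were also below.

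In siNC_2 the values of KRT15 (159 FPKM), GRHL3 (2.70 FPKM), CD74 (0.0870 FPKM) and S100A8 (0.393 FPKM) lay below the others. In siNC_1 the values of TIMP2 (25.2 FPKM) and IL6 (0.314 FPKM, others 0.216 to 0.224) lay above them. IL6 and CD74 were below 1 FPKM in every library, where counting error is larger.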

How the results depend on the processing

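No paired analysis was possible because only the siNC group is described and no test between groups was run.

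TPM rescaling multiplied the means of the named genes 2.11 to 2.34 times, since the FPKM of a library summed to 428206 to 474883 and TPM to 1000000. With it, 1527 instead of 679 symbols reached 100, and the detected members became 1 of the hair keratins, 8 of the cornified envelope list, 5 of the epithelial-mesenchymal list, and 2 melanocyte, 1 fibroblast, 1 Langerhans cell and 2 Merkel cell and neuron markers. A threshold of 0.5 FPKM gave the same counts for these lists except 7 for the cornified envelope. As shares of raw counts, the 10 most abundant genes held 5.92% and keratins 1.24%, and mitochondrially encoded genes held 10.6% of the summed FPKM. The median CV was 13.0% over genes of at least 1 FPKM and 29.2% with no filter. Leaving out each library in turn gave a median CV of 6.61% to 11.6% and a biological coefficient of variation of 11.5% to 24.0%, the lowest values without siNC_4. The cause of these differences was not tested. The other 445 alternative values for 54 results stayed within the tolerance set for each (1.5 times for counts). For shares the tolerance was the SD of the 4 libraries, which leaving out 1 library cannot exceed, so those values could not move. For the 2 measures of variation it was the SD of the leave-one-out values. TMM scaling moved no mean of a named gene beyond its SD.

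Genes near 1 FPKM and those at 0 counts are limited by depth. The replicates are cultures of 1 line, and the 4 values of a gene leave the SD imprecise. Genes with near copies or overlapping spans carry uncertain levels.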
